A study of Mus musculus with 26 samples.

Results

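This account covers 9 genes whose products fold, untangle or bend chromatin, in single cells of the postnatal mouse retina. They are Top2a (a type II topoisomerase), the HMG-box genes Hmgb1, Hmgb2 and Hmgb3, and the condensin I subunit genes Smc2, Smc4, Ncapg, Ncaph and Ncapd2. They were taken by name, with each probe set that the array's annotation gives to them alone. That rule gave 21 probe sets for 8 of the 9 genes, out of 18193 genes on the arrays. All 5 probe sets listed for Hmgb1 are annotated to several genes, so that no value is given for Hmgb1, and HMGB paralogs could be compared for Hmgb2 and Hmgb3 only.

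All cells came from C57BL/6 mice homozygous for a floxed Notch1 allele. Retinas were electroporated at postnatal day 0, went on developing in vivo and were harvested at day 3. The 13 WT cells carried the floxed allele undeleted and received GFP under CAG, a broadly active promoter. The 13 N1-CKO cells received Cre recombinase under CAG together with CALNL-GFP, a reporter that Cre switches on. Single GFP-positive cells were picked under a microscope, and the oligo dT-primed cDNA of each was amplified by PCR and hybridised to its own array. Picking by GFP did not choose a cell type, and GFP in the N1-CKO group shows Cre activity at the reporter, not at Notch1. The labels name no animal, so each group stands as 1 sample of 13 cells, no test between groups was made, and SDs describe the spread between cells.

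Condensin I is a ring of the SMC2 and SMC4 ATPases closed by the kleisin NCAPH, with NCAPG and NCAPD2 bound to it, and it compacts chromosomes in mitosis. Topoisomerase IIα cuts and passes DNA duplexes, which lets sister chromatids separate, and its transcript rises in S and G2 phase in dividing cells. HMGB proteins bend DNA through paired HMG boxes. In the developing retina, dividing progenitors produce these proteins in quantity, and newborn neurons leave the cell cycle for good.

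Signals are MAS5 intensities on a log2 scale. Values below a floor of 4.65, the median of all arrays, were raised to it. Detection means a signal at or above the 90th percentile of the array that the cell was hybridised to, a cut that lay between 7.94 and 11.2 over the 26 cells. For each gene the brightest probe set on average was used. Each difference is the N1-CKO mean minus the WT mean, and it mixes the share of cells holding a transcript with the level in those cells.

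The arrays fell into a set with high 18S ribosomal control signal (5 WT and 5 N1-CKO cells) and one with low signal (8 and 8 cells). The Gapdh 3' to 5' control ratio, which grows with short cDNA, ranged from 1.40 to 3.26 in WT cells and from 1.46 to 245.4 in N1-CKO cells. It was at most 3 in 11 WT and 8 N1-CKO cells. The cells at or under that ratio are called the low-ratio cells, and values within these sets are given for each of the 8 genes. Notch1 itself reached the detection cut in 10 WT cells and 8 N1-CKO cells, its means differed by -1.65, and where its probe set lies relative to the deleted part is not known here. Of the cell type markers, WT cells had a median of 6 of 9 progenitor markers detected and N1-CKO cells 3, while of 9 photoreceptor markers the medians were 2 and 6. Each marker of microglia, astrocytes and pigment epithelium was detected in at most 1 cell, and of 6 vascular markers Kdr was seen in 9 WT and 3 N1-CKO cells and Pecam1, Cldn5, Cdh5 and Rgs5 in 0.

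Of the 8 genes, 8 had a lower mean in N1-CKO cells, where 51.5% of all 8280 genes detected in at least 2 cells did. A difference of at least 2 log2 units below WT was found for 6 of 8, against 6.92% of all genes, and the median of the 8 differences was -2.93 against -0.04. By 2 or more above WT there were 0 of 8 (4.75%). For 5 of 8, at least 4 fewer N1-CKO than WT cells detected the gene, against 6.73% of all genes. The genes were chosen with earlier results of these cells known, so that these counts are a description. The difference was larger than the SD over cells in either group for 2 of the 8, Hmgb2 and Ncapd2. A WT cell had 2 to 8 of the 8 genes detected, with a median of 6, and an N1-CKO cell 1 to 6, with a median of 2. All 8 were detected in WT cells 2, 3 and 5 and in 0 N1-CKO cells. At least 5 were detected in 7 WT cells and in 3 N1-CKO cells, those numbered 1, 2 and 3.

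Promoters are shown for Top2a, Hmgb2, Ncapg and Ncapd2, whose differences were below -2, and for Hmgb3, the paralog that was detected nearly throughout. They run from 250 bases before to 50 after the start in RefSeq's GRCm38.p6 table, which had entries for all of the genes but Smc4. Many late cell cycle genes carry CCAAT boxes, bound by NF-Y, and a cell cycle genes homology region, of which TTTGAA is a common form. Capitals mark CCAAT and TTTGAA on either strand (ATTGG and TTCAAA on the printed one), and no match overlapped another. The stretches lie at chr11:99024140-99024439, minus strand (Top2a), chr8:57511593-57511892, plus strand (Hmgb2), chrX:71555667-71555966, plus strand (Hmgb3), chr5:45669675-45669974, plus strand (Ncapg) and chr6:125191537-125191836, minus strand (Ncapd2).
Top2a: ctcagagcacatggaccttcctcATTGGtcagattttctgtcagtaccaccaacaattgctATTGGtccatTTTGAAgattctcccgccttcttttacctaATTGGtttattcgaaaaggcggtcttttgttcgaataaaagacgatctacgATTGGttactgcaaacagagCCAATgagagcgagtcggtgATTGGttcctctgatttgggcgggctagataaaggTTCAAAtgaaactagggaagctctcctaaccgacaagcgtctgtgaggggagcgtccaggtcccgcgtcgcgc
Hmgb2: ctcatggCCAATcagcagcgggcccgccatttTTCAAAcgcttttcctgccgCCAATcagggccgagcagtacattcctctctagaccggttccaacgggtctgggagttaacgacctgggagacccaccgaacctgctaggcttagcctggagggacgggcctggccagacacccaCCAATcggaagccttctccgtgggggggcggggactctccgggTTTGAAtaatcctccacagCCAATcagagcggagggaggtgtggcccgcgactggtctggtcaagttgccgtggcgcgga
Hmgb3: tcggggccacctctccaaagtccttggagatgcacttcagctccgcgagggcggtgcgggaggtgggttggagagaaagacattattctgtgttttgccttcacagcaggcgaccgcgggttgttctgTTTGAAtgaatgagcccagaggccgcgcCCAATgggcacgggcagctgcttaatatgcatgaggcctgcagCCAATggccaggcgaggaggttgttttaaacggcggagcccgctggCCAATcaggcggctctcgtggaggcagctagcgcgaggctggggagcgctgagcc
Ncapg: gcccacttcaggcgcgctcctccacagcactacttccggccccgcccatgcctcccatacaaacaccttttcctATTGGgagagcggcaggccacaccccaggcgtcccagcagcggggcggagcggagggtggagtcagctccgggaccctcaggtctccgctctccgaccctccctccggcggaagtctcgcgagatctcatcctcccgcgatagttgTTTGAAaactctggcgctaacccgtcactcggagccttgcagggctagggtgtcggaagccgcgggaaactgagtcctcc
Ncapd2: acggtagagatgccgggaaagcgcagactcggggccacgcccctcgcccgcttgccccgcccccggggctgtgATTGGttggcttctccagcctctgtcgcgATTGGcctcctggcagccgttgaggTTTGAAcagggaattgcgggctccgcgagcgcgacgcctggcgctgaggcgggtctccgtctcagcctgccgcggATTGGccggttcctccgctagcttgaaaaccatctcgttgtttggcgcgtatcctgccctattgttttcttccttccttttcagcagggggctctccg
Top2a held 6 CCAAT matches, Hmgb2 held 4, Hmgb3 and Ncapd2 held 3 each and Ncapg held 1. Of all 32851 promoters in the table, 37.4% held at least 1, 3.37% at least 3 and 1.06% at least 4. TTTGAA occurred in 17.9% of them, and both motifs in 6.95%. A TTTGAA match began 23 bases before the start in Top2a and 30 bases before it in Hmgb2 and Ncapg. In Hmgb3 and Ncapd2 the only match lay farther out, at 122 and 123 bases. The share of all promoters with a match at such distances was not computed. Of the promoters not printed, that of Smc2, whose difference of -2.44 was also below -2, held 1 CCAAT and 2 TTTGAA matches. That of Ncaph held neither motif. A match is a description of these letters.

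**Figure D1:**
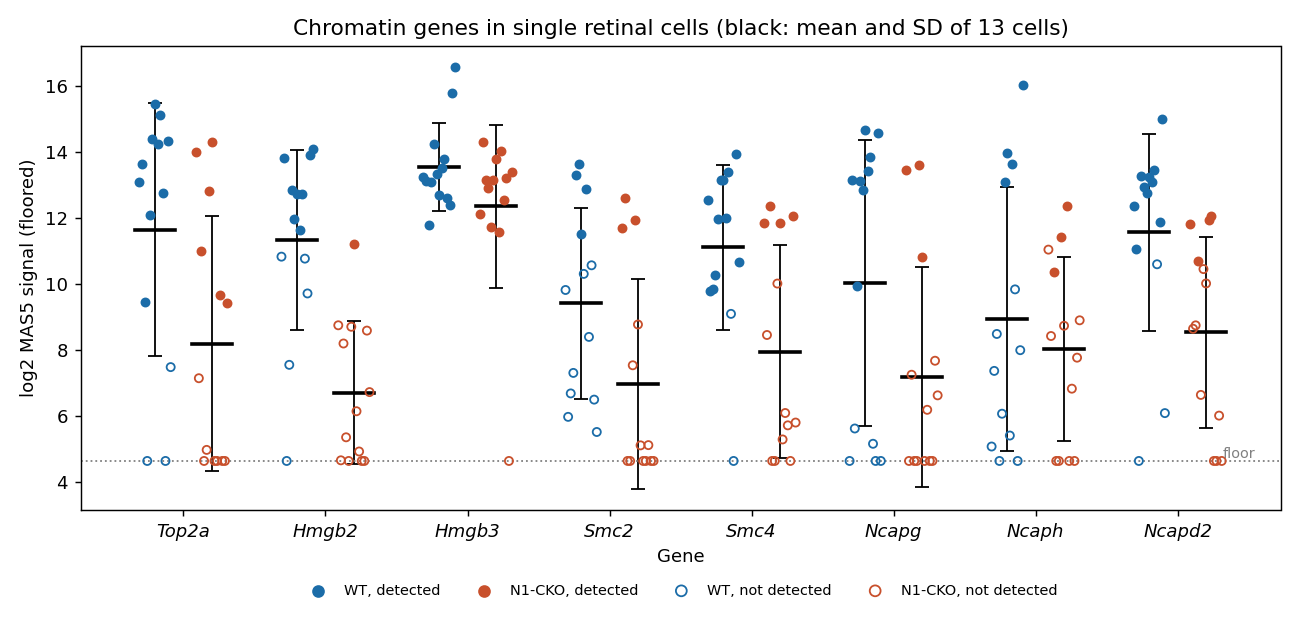
Floored log2 MAS5 signal (vertical axis) of 8 genes (horizontal axis) in 13 WT (blue) and 13 N1-CKO (orange) cells. Filled points are detected, open points are not, and black bars show the mean and SD over cells. Hmgb3 was detected in 25 of 26 cells. Most N1-CKO points of Hmgb2, and most Smc2 points of both groups, lie below every filled point of the gene.

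Top2a encodes topoisomerase IIα, the isoform of dividing cells. Its log2 signal in WT cells ran from 4.65 over a median of 13.09 to 15.47, and in N1-CKO cells from 4.65 over a median of 7.15 to 14.32, so the groups overlapped over nearly their whole range. It was detected in 10 WT cells (76.9%, exact Clopper-Pearson 95% interval 46.2 to 94.96, which covers counting error only) and in 6 N1-CKO cells (46.2%, 19.2 to 74.9). The means were 11.65 ± 3.83 and 8.20 ± 3.86 (SD over cells, n = 13 each), a difference of -3.45 that lies within either SD. Detected signals ran from 9.47 to 15.47 in WT and from 9.42 to 14.32 in N1-CKO cells. Of the 6 N1-CKO cells that detected it, cells 1, 2 and 3 lay between 12.83 and 14.32, and cells 6, 9 and 11 between 9.42 and 10.99. For high 18S arrays the difference was -0.61, where 3 of 5 cells of each group detected it, and -5.22 in the low 18S set, with 7 and 3 of 8 cells. Without N1-CKO cell 8 the high 18S value was 0.55, of the opposite sign. The low-ratio cells gave -2.19. Its other 2 probe sets were detected in 0 cells.

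The paralog Top2b, which neurons keep after the last division, was no member and was contrasted with Top2a after its values were seen. Its log2 signal ran from 4.65 over a median of 12.62 to 15.91 in WT cells and from 11.39 over 13.42 to 14.60 in N1-CKO cells. Detection was seen in 8 WT cells and in each of the 13 N1-CKO cells. The means were 11.58 ± 2.91 and 13.22 ± 1.16, which differed by 1.64. Among WT cells, 5 detected Top2a without Top2b, 3 Top2b without Top2a and 5 both. Among N1-CKO cells, 0 detected Top2a alone, 7 Top2b alone and 6 both. The per-cell contrast Top2a minus Top2b, in which the probe sets' own brightness cancels between groups, was lower by 5.08 log2 units in N1-CKO cells (the SDs over cells were 5.67 in WT and 4.49 in N1-CKO). Within the high 18S set this contrast differed by -1.89, within the low 18S set by -7.08, and by -1.30 when all probe sets of each gene were averaged.

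Among the HMGB genes, Hmgb2 is the one tied to dividing cells in most tissues. Its log2 signal in WT cells ran from 4.65 over a median of 11.96 to 14.11, and in N1-CKO cells from 4.65 over a median of 6.15 to 11.23. The highest N1-CKO value was below the WT median. In WT, 8 cells detected Hmgb2 (61.5%, interval 31.6 to 86.1), while 1 N1-CKO cell did (7.69%, interval 0.195 to 36.0). The means were 11.33 ± 2.73 and 6.71 ± 2.17, and the difference of -4.62 was the largest of the 8 and larger than either SD. High 18S arrays gave -2.92, low 18S arrays -5.68 and the low-ratio cells -3.66. A second probe set of Hmgb2, detected in 4 WT and 0 N1-CKO cells, had 10.20 ± 1.57 against 6.81 ± 1.47 (-3.39), and the dimmest differed by -0.63.

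Hmgb3, an X-linked paralog known from blood stem and progenitor cells, was bright in nearly every cell. Its log2 signal ran from 11.79 over a median of 13.24 to 16.58 in WT cells and from 4.65 over 13.16 to 14.31 in N1-CKO cells, and the medians differed by -0.08. All 13 WT cells (interval from 75.3% upward) and 92.3% of N1-CKO cells (12 cells, interval 64.0 to 99.8) detected it. The exception was N1-CKO cell 8, at the floor. The means were 13.56 ± 1.33 and 12.36 ± 2.46 (-1.20), and without that cell the N1-CKO mean was 13.00 ± 0.87 (n = 12) and the difference -0.56. High 18S arrays gave -2.22, or -0.41 without that cell, low 18S arrays -0.56 and the low-ratio cells -1.51.

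The contrast Hmgb2 minus Hmgb3, taken within each cell, had a mean of -2.23 ± 2.09 in WT and of -5.64 ± 3.62 in N1-CKO cells, a difference of -3.42. Over all cells it ran from -7.14 to 0.71 in WT and from -9.65 to 3.95 in N1-CKO cells, so the groups overlapped. In the low 18S set it ran from -2.67 to 0.03 in WT and from -9.11 to -3.37 in N1-CKO cells. In the low-ratio cells the groups differed by -2.14. In the high 18S set the groups differed by -0.71, and by -2.69 without N1-CKO cell 8. Across cells the signals of these paralogs correlated with r = 0.67 over the 13 WT cells and with r = -0.22 over the 13 N1-CKO cells. The negative sign rested on N1-CKO cell 8, without which r was 0.08 (n = 12). These values are descriptions, and cells share array scaling and cDNA quality.

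The SMC subunits, which condensin I and II share, had lower means in N1-CKO cells but were detected in unequal numbers of cells. Smc4 ran from 4.65 over a median of 11.96 to 13.96 in WT cells and from 4.65 over 6.10 to 12.36 in N1-CKO cells. Detection reached 84.6% of WT cells (11 cells, interval 54.6 to 98.1) and 30.8% of N1-CKO cells (4 cells, interval 9.09 to 61.4). The means were 11.12 ± 2.50 and 7.96 ± 3.22 (-3.16). A dimmer Smc4 probe set, detected in 7 and 1 cells, differed by -2.85, and the dimmest, in 0 and 1 cells, by -0.05. Its partner Smc2 was detected in 4 and 3 cells only, from 5.52 over a median of 9.82 to 13.62 in WT and from 4.65 over 5.12 to 12.60 in N1-CKO cells (9.42 ± 2.89 against 6.98 ± 3.18, -2.44). Of the N1-CKO cells, 6 lay at the floor for Smc2 and 0 WT cells did. In the high 18S set Smc2 had the opposite sign, 0.66, with 0 of 5 WT and 1 of 5 N1-CKO cells detecting it, and Smc4 differed by -0.80 (its dimmer probe set by -3.51). In the low 18S set they differed by -4.38 and -4.63, and in the low-ratio cells by -1.11 and -1.88.

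The non-SMC subunits differed between groups to unequal degrees. Ncapd2, a HEAT-repeat subunit, ran from 4.65 over a median of 12.76 to 15.01 in WT and from 4.65 over 8.75 to 12.08 in N1-CKO cells. It was detected in 10 and 4 cells (11.57 ± 2.98 against 8.54 ± 2.90, -3.03), with differences of -2.40 for high 18S arrays, -3.43 for low 18S arrays and -3.27 for the low-ratio cells. Ncapg, the other HEAT-repeat subunit, ran from 4.65 over 12.85 to 14.66 in WT and from 4.65 over 6.19 to 13.60 in N1-CKO cells. It was detected in 8 and 3 cells (10.02 ± 4.33 against 7.19 ± 3.34, -2.83), and 3 WT and 6 N1-CKO cells lay at the floor. Its differences were -2.18 for high 18S arrays, -3.24 for low 18S arrays and -1.5 for the low-ratio cells. The other Ncapg probe set (1 and 0 cells) differed by -0.22 and the other Ncapd2 probe set (0 and 0 cells) by -0.33. Ncaph, the kleisin, was detected in 4 and 3 cells, with WT values from 4.65 over 8.00 to 16.03 and N1-CKO values from 4.65 over 8.43 to 12.38. Its means of 8.95 ± 4.00 and 8.04 ± 2.80 differed by -0.91, by -0.32 without WT cell 9, which held the highest value, and by 0.04 in the low-ratio cells. High 18S arrays gave -0.07 and low 18S arrays -1.44. A second Ncaph probe set, in 4 and 1 cells, differed by -1.79.

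All 5 condensin I subunits were detected together in 3 WT cells and 0 N1-CKO cells, and at least 3 subunits in 8 and 2 cells. No subunit reached the cut in 1 WT cell and 4 N1-CKO cells. Over the 28 pairs of the 8 genes, r across the 26 cells had a median of 0.44 and ran from 0.05 for Ncaph with Ncapd2 to 0.75 for Top2a with Smc4. Within the complex, co-detection varied by pair. Ncapd2 and Ncaph, the pair with the lowest r, were detected together in 4 cells, Ncapd2 alone in 10 and Ncaph alone in 3. Smc4 and Ncapg (r = 0.71) were detected together in 10 cells, Smc4 alone in 5 and Ncapg alone in 1. A signal below the cut does not show that a transcript was absent.

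**Figure D2:**
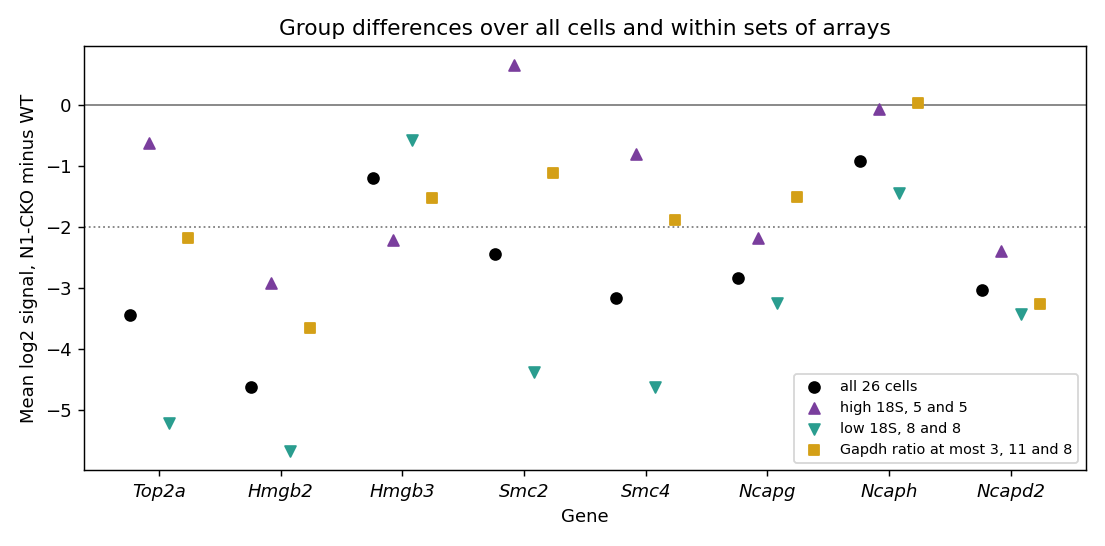
Difference in mean log2 signal, N1-CKO minus WT (vertical axis), for 8 genes (horizontal axis) over all cells and within sets of arrays; the dotted line marks -2. Hmgb2 and Ncapd2 lie below -2 in every set, while Smc2 is at 0.66 in the high 18S set.

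Within sets of arrays, 4 of 8 genes were lower by at least 2 in the high 18S set (10.7% of all genes there), 6 of 8 in the low 18S set (14.3%) and 3 of 8 in the low-ratio cells (8.3%). The high 18S count was 2 without N1-CKO cell 8 (Hmgb2 and Ncapg), 2 without N1-CKO cell 9 (Hmgb2 and Hmgb3) and 1 without WT cell 8 (Hmgb2). The low-ratio count was 5 without N1-CKO cell 1. It was 2 (Hmgb2 and Ncapd2) when WT cell 2, 4, 5 or 8 or N1-CKO cell 7 or 10 was left out. In the same order, 7, 8 and 7 of 8 were lower by any amount (45.4%, 54.2% and 49.8% of all genes), and 0 of 8 were higher by at least 2 in each (15.0%, 7.91% and 7.91%). The medians of the 8 differences were -1.49, -3.91 and -1.70 in that order. The 5 N1-CKO cells with a ratio over 3 had 1 to 3 of the 8 genes detected, and the other 8 had 1 to 6. The part of cDNA quality in these differences was not tested. Most photoreceptor markers went the other way. Of 9 measured, 7 were detected in at least 2 cells, 5 were higher by at least 2 (4.75% of all genes) and Rcvrn was detected in 0 cells. Of the 7, 6 had higher means and 1, Nrl, a lower one (9 and 9 cells, -0.34). The summed signal of the 9 photoreceptor markers ran from 651.3 to 294104 in WT and from 7353 to 420013 in N1-CKO cells. Of the 9 progenitor markers, 4 were lower by at least 2 (6.92% of all genes), with summed signals from 34902 to 193789 and from 3818 to 99769. The part of cell type in the results for the chromatin genes was not tested.

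The link to cycling cells was read from Mki67, the proliferation antigen gene, and from the mean log2 signal of 19 G2/M and mitosis genes, Mki67 among them. That list holds none of the 8 genes, and its median difference was -3.17, with 17 of 19 lower by at least 2 (6.92% of all genes). Top2a and Mki67 were detected together in 14 of 26 cells, Top2a alone in 2, Mki67 alone in 1 and neither in 9. Every one of the 10 WT cells with Top2a also had Mki67. Ncapg was detected in 11 cells, all with Mki67. Hmgb2 was seen with Mki67 in 8 cells and without it in 1, and 7 cells had Mki67 alone. Hmgb3 was detected in all 15 cells with Mki67 and in 10 without it. Ncapd2 was seen in 10 cells with Mki67 and in 4 without, 3 of them N1-CKO cells, and Ncaph in 5 with it and 2 without.

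**Figure D3:**
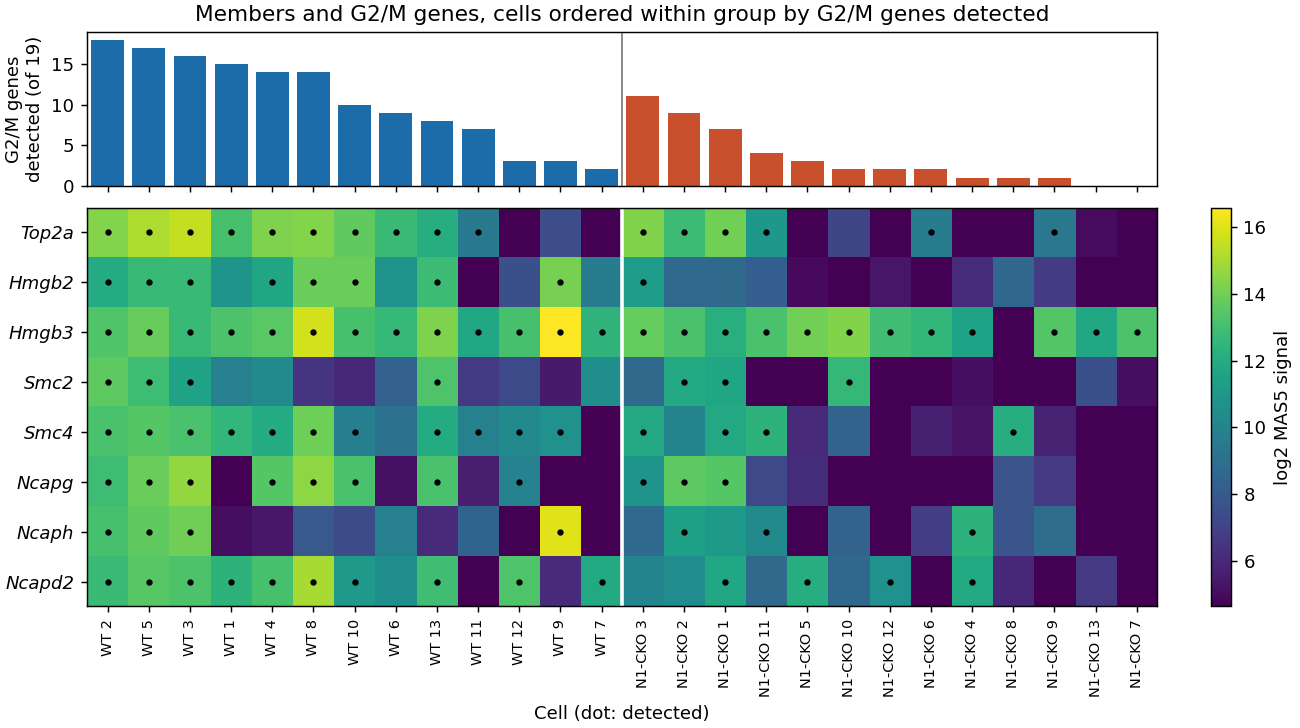
Number of 19 G2/M genes detected (upper bars) and floored log2 signal of the 8 genes (colour scale, dots mark detection) in each cell, ordered within WT and N1-CKO by the upper bars. The 3 WT cells with the most G2/M genes, 16 to 18, hold all 8 genes, and the 3 N1-CKO cells with the most, 7 to 11, hold 5 or 6.

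Pearson's r with the G2/M mean over the 26 cells was 0.89 for Top2a (rho 0.90), 0.81 for Smc4, 0.74 for Hmgb2, 0.72 for Ncapg, 0.60 for Smc2, 0.59 for Ncapd2, 0.44 for Ncaph and 0.26 for Hmgb3. Thus 6 of 8 reached 0.5, as did 4.3% of 8261 genes. These cells share the group difference, so values within each group are given too. Over the 13 WT cells 3 of 8 reached 0.5 (10.1% of genes), namely Top2a with 0.92, Smc4 with 0.81 and Ncapg with 0.59. Over the 13 N1-CKO cells 6 of 8 did (6.43%), with Ncapg at 0.88, Top2a at 0.87, Hmgb2 at 0.83, Smc4 at 0.75, Smc2 at 0.64 and Ncaph at 0.55. Hmgb3 had 0.04 in WT and 0.19 in N1-CKO cells. With the mean of 18 G1/S and replication genes, the median r of the 8 genes was 0.45 over the 26 cells, 0.06 over WT and 0.46 over N1-CKO cells, beside 0.66, 0.42 and 0.69 with the G2/M mean.

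**Figure D4:**
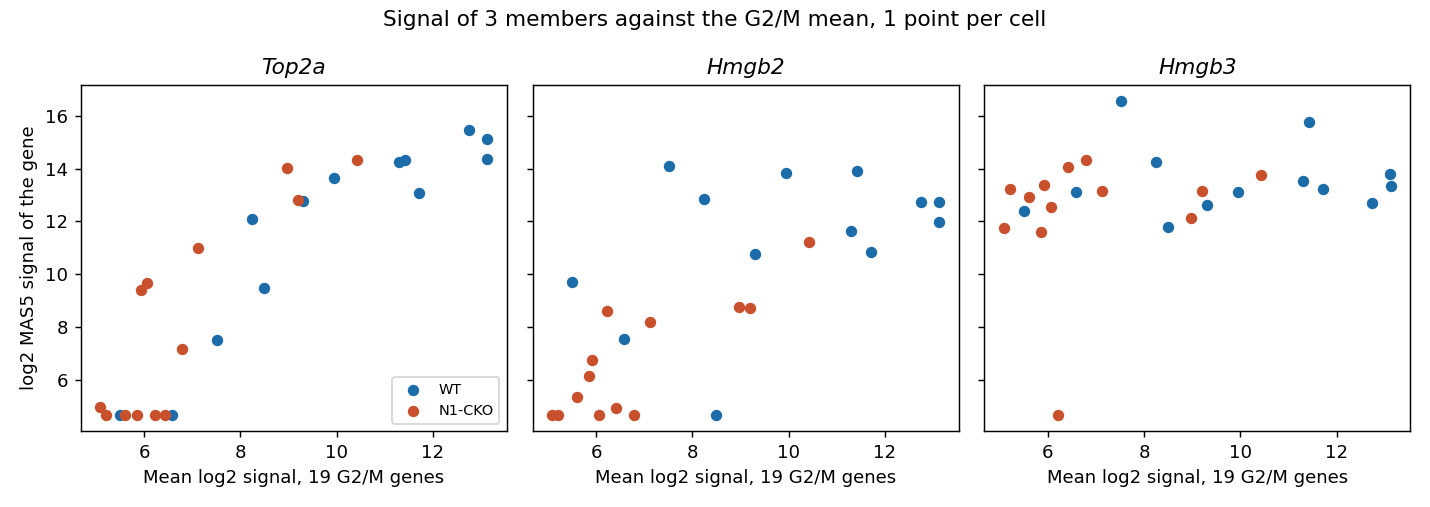
Log2 signal of Top2a, Hmgb2 and Hmgb3 (vertical axis) against the mean log2 signal of 19 G2/M genes (horizontal axis), 1 point per WT (blue) or N1-CKO (orange) cell. Top2a climbs along the axis in both groups (r = 0.92 and 0.87), while Hmgb3 stays high throughout apart from N1-CKO cell 8.

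The N1-CKO cells with the most G2/M genes held Top2a and Hmgb2 at unlike positions within the WT range. In cells 1, 2 and 3 Top2a had log2 signals of 14.01, 12.83 and 14.32, beside a WT median of 13.09. Hmgb2 had 8.75, 8.71 and 11.23 in the same cells, below the WT median of 11.96, and reached the cut in cell 3 only. Top2a was detected without Hmgb2 in 3 WT cells too, those numbered 1, 6 and 11. Their Top2a signals were 13.09, 12.77 and 9.47, and their Hmgb2 signals 10.83, 10.77 and 4.65. They had 15, 9 and 7 G2/M genes detected, and N1-CKO cells 1, 2 and 3 had 7, 9 and 11. The N1-CKO and WT cells named here were singled out after their values were seen.

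The genes most like each pattern were named by the highest r of log2 signal over the 26 cells, among genes detected in at least 6. For Top2a they were the mitotic kinase gene Pbk (0.88), Mki67 (0.86) and Cdca3 (0.86), and 24 of 4681 genes reached 0.7. Smc4 ranked 13 and Ncapg 14 in that list. For the mean of the 5 condensin subunits they were Mki67 (0.83), Cdca3 (0.80) and Top2a (0.78). For Hmgb2 they were Crym, a thyroid hormone-binding protein gene (0.85), the cytokinesis factor gene Ect2 (0.76) and Rrm1, a ribonucleotide reductase subunit gene (0.75). Crym reached the cut in 12 WT cells and 5 N1-CKO cells and differed by -4.30. For Hmgb3 they were Gdi2 (0.85), Gtf2i (0.81) and Trim28 (0.77), with differences of -0.19, -0.13 and -0.52. Those correlations fell most when N1-CKO cell 8 was left out, to 0.53, 0.51 and 0.36. Over the WT cells alone they were 0.68, 0.82 and 0.48.

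Related chromatin genes outside the 9 were taken from lists of whole complexes and families. Of the condensin II genes, Ncaph2 (8 and 5 cells, -1.64) and Ncapg2 (4 and 2 cells, -1.81) had lower means, Ncapd3 was seen in 3 and 0 cells (-0.72), and 0 of 3 were lower by 2. Over all genes 6.92% were lower by at least 2 and 4.75% higher, so that a count of 0 among 3 to 5 genes is near the background. Of 15 cohesin genes, 3 were lower by at least 2 and 0 higher. The 3 were regulators: Espl1, the separase that opens the cohesin ring, detected in 6 and 0 cells (-4.19), Cdca5, which protects cohesin on chromatin (7 and 2 cells, -3.43), and Sgo1, the guardian of centromeric cohesin (6 and 1 cells, -2.75). The core cohesin genes Smc3, Rad21 and Smc1a were detected in near equal numbers. They were seen in 8 and 8 cells (-1.79), 12 and 11 cells (-1.36) and 10 and 9 cells (-0.69). Of the other core genes, Stag1 (8 and 8 cells) differed by 0.78 and Stag2 (4 and 3 cells) by -1.52. Of the remaining regulators, Wapl (0.73), Esco1 (0.71) and Nipbl (0.27) had higher means. Lower means were found for Pttg1 (-1.18), Esco2 (-1.15), Pds5b (-0.58) and Mau2 (-0.55). These core genes and remaining regulators were named after their values were seen. SMC5/6 genes had 0 of 5 past 2 in either direction, with Nsmce2 at -1.97, Nsmce4a at 1.17 and Nsmce1 at -0.88.

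The list of other HMG genes also held Supt16, which is not an HMG gene. Of its 6 genes, 2 were lower by at least 2 (6.92% of all genes). They were the nucleosome-binding Hmgn5 (7 and 1 cells, -2.72) and Hmg20b (9 and 4 cells, -2.11), while Hmgn3 differed by -1.24. Among the other topoisomerases 0 of 4 passed 2, with Top1mt at 0.91 and Top3b at 0.81 beside Top2b. Genes of the SET complex, with which HMGB2 associates, had a median of 0.45 over 4 and 0 past 2, with Apex1 at 1.28, Anp32a at -1.07 and Nme1 at 0.71. Of 4 variant histone genes, Cenpa, the histone H3 of centromeres, was seen in 8 and 0 cells (-3.81), and H2ax (5 and 2 cells) differed by -1.74 and H1f10 (2 and 0 cells) by 0.64. In the G2/M list the largest differences were those of Nusap1 (-5.72), Cdc20 (-4.36) and Mki67 (-4.22), and in the G1/S list those of Rrm1 (-4.81), Uhrf1 (7 and 0 cells, -3.68) and Mcm3 (-3.30). Of 18 G1/S genes 8 were lower by at least 2 (6.92% of all genes). Where 0 cells of a group detected a gene, its mean there rests on signals below the cut.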

How the data were processed

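Each of 26 cells has 1 array. The deposited values are intensity before any log. The submitters' processing notes name MAS5 as the authors' tool, and no version is given in the sources used here. Trimming 2% from each end gave a mean of 500.0 on every array, so total RNA per cell cannot be compared. Of 45101 probe sets, 64 are controls. GEO's platform annotation named 1 gene for 34958 and several for 932, which were left out.

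Signals were floored at 25.02 and log2 was taken. Detection took 4504 probe sets on each array. Arrays were split at the largest gap in the 18S control. With 1 sample per group no test was made, and the number of arrays limits the precision. The members, gene lists and rule for named genes were chosen with earlier results of these data known. Named are all members, the 3 largest differences per list, the 3 genes most like Top2a, Hmgb2, Hmgb3 and the condensin mean, Mki67 and Notch1. Group differences and the probe set rule were tested on simulated data. Alternatives were other floors, probe set averaging, quantile normalization, medians, sets of arrays, other detection cuts and leaving out each cell. Python 3.11.15, pandas 2.3.3 and scipy 1.17.1 were used. The planned contrasts with Hmgb1 were not made.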

Additional observations from a re-analysis of the deposited data

How the results depend on the processing

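Over the alternatives other than leaving out 1 cell, the median difference of the 8 genes ran from -5.26 (medians over cells) to -1.44 (mean of all probe sets). The number lower by at least 2 ran from 2 to 6, with 2 for the mean of all probe sets and 3 in the low-ratio cells. Hmgb2 minus Hmgb3 ran from -5.11 (low 18S) to -0.71 (high 18S), Top2a minus Top2b from -7.08 (low 18S) to -1.30 (mean of all probe sets), and the median r with the G2/M mean from 0.55 to 0.73. With 1 cell left out at a time, the median difference ran from -3.33 to -2.66, the count stayed at 6, and the contrasts ran from -4.22 to -3.08 and from -5.82 to -4.28. The sign changed 6 times: Smc2 was at 0.66 in the high 18S set, Ncaph at 0.43 with medians over cells and 0.04 in the low-ratio cells, the SMC5/6 list at 0.12 in the high 18S set and 0.03 with all probe sets, and the SET list at -0.12 with all probe sets. The cause was not tested. Condensin II had -3.63 with medians over cells. Of the 13 other probe sets, 4 had the opposite sign and 10 were detected in 3 cells or fewer. Leaving out cells within a set of arrays was chosen after seeing the data. No paired analysis was possible because the cell numbers do not pair cells across groups and no result comes from a test.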

Other observations

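WT cell 9 had a signal pattern unlike the other cells with bright members. Its Ncaph signal, 16.03, and its Hmgb3 signal, 16.58, were the highest of all 26 cells, and Hmgb2 was at 14.11, while Top2a was at 7.49 and Mki67 at 7.42. It had 3 of 19 G2/M genes and 3 of 18 G1/S genes detected. Its array had a low cut, at 8.69, beside a median cut of 10.53 over WT cells. Every array had the same trimmed mean signal. The part of this scaling in the high signals of WT cell 9 was not tested. WT cell 6 showed another combination, with 16 of 18 G1/S and 9 of 19 G2/M genes detected but 2 of the 8 chromatin genes, Top2a and Hmgb3, and no condensin subunit. The cut of that array was high, at 11.14, and Hmgb2 (10.77), Ncapd2 (10.60) and Ncaph (9.84) lay below it. Smc4 (9.10), Smc2 (8.40) and Ncapg (5.17) lay farther below. In WT cell 10, whose cut was 9.37, Smc4 counted as detected at 9.80. The part of the array's cut in this combination was not tested.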
